A study of Mus musculus with 24 samples.

Results

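The genes described here are the 100 mouse genes whose transcripts were transiently highest in the epididymis before birth. Each gene was scored by the mean of its epididymis values at embryonic day 16.5 (E16.5) and 18.5 (E18.5) minus the larger of its values at E14.5 and at postnatal day 1 (P1). The genes were thus chosen by their epididymis values, and the 100 highest scores were kept out of 18193 genes measured by a probe set with exactly 1 gene symbol. Every epididymis value was used by that choice and is given as a description. The courses of the same genes in the efferent duct and in the vas deferens were not used by the choice, and those were tested.

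The efferent ducts, epididymis and vas deferens carry sperm from the testis. The epididymis and vas deferens form from the Wolffian duct, which is kept in the male by testicular androgen, and the efferent ducts form from neighbouring mesonephric tubules. Late in gestation the epididymal tube elongates and coils inside a mesenchyme that sends and receives growth and patterning signals, and the vas deferens lays down a thick muscle coat.

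RNA came from male CD1 mice, an outbred strain, and all 12 groups were untreated. The groups were efferent duct, epididymis and vas deferens, each at these 4 ages, with 2 arrays per group and 24 arrays in all. The labels do not say whether the 2 arrays of a group came from separate animals or pools, so p-values measure the spread between these arrays, which may be technical. Each value is a ratio to the median of its probe set over the 24 arrays, given here on the log2 scale. Such a ratio shows how one gene moved across samples. It gives no level, so genes were not compared with each other in abundance, and the presence or absence of cell type markers could not be judged. The RNA is that of whole ducts with epithelium and mesenchyme together, so fewer cells of a type and less RNA per cell cannot be told apart. One member, Hoxd10, a posterior patterning gene, followed the tissue labels at all ages, with ratios of -3.66 to -2.82 in the efferent duct, -0.43 to 0.92 in the epididymis and 1.84 to 2.30 in the vas deferens. Over the 14 measured posterior HOX genes the efferent duct medians were the lowest, at -0.57 to -0.22. Epididymis and vas deferens medians were 0.03 and 0.76 at E14.5, and 0.28 and 0.31 at E16.5. They were 0.053 and -0.017 at E18.5, and 0.001 and -0.023 at P1.

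Some arrays stood apart from the rest. The 4 early arrays of the efferent duct (E14.5 and E16.5) had interquartile ranges of 0.48 to 0.61 over all probe sets, against at most 0.43 elsewhere. The 4 late arrays of the vas deferens (E18.5 and P1) had a 5' minus 3' difference of -2.94 to -2.68 between Gapdh probe sets, on the log2 scale. Epididymis E14.5 replicate 2 had a corresponding difference of -0.54, against 0.05 in its partner, and the replicates of that group correlated at r = 0.41 over probe sets, against 0.71 to 0.93 in the other groups. In both tested tissues the step from E14.5 to E16.5 and the step from E18.5 to P1 each lie inside or outside such a set of arrays. The first step in the efferent duct and the last in the vas deferens use only arrays that stood apart, so neither could be computed without them. The step from E16.5 to E18.5 crosses from one to the other, so there age and array set cannot be told apart and it was not tested. The same limit holds wherever a value at E18.5 or P1 is compared with one at an earlier age in these ducts.

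The scores of the 100 genes ran from 0.52 to 1.02 on the log2 scale, or 1.44-fold to 2.02-fold, with a median of 0.60 (1.51-fold). Over all genes the median score was -0.07, and 32.0% of genes scored above 0. The last members inside the threshold were Foxl2os at 0.524, Kdm7a at 0.524 and Ago3 at 0.521. The first genes outside were Rere at 0.520, Gsk3b at 0.517 and Vcan at 0.516. In 62 of the 100 members all 4 arrays of E16.5 and E18.5 lay above all 4 arrays of E14.5 and P1, against 3.41% of all genes, a count that the choice of genes sets. The peak was at E16.5 in 84 members and at E18.5 in 16. The higher of the end points was E14.5 in 45 members and P1 in 55. The median over the members was -0.20 at E14.5, 0.72 at E16.5, 0.25 at E18.5 and -0.17 at P1.

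**Figure D1:**
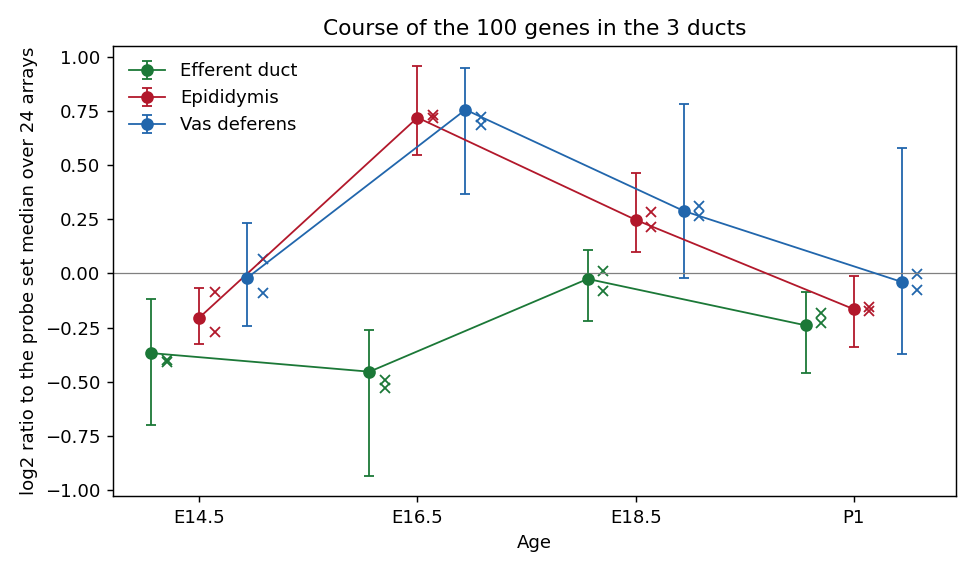
Median log2 ratio of the 100 genes at each age in each duct; circles are medians over genes of the 2-array mean, bars the interquartile range over genes, and crosses the median on each single array. The epididymis and vas deferens medians peak at E16.5 at 0.72 and 0.76, and the efferent duct median is lowest there at -0.45. In the efferent duct and the vas deferens, E18.5 and P1 lie in another array set than the earlier ages.

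Choosing the genes again without 1 epididymis array returned 64 to 89 of the 100, the fewest without E14.5 replicate 2, and 32 members were returned in all 8 cases. Other probe sets existed for 86 members, none scoring above the one that stands for its gene, as the choice requires. Their median score was above 0 in 52 members, at or below 0 in 34 and above 0.25 in 14. When all probe sets of a gene were averaged, 44 of the 100 were chosen again. The chosen probe sets also differed in annotation: 9 of 100 are listed under a RefSeq transcript accession, against 20.6% of the probe sets chosen for all genes.

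**Figure D2:**
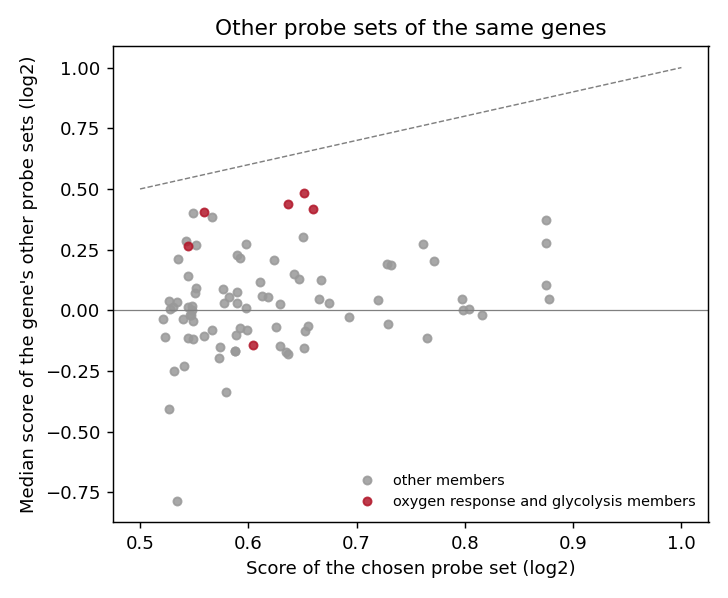
Score of the chosen probe set (x axis, log2) against the median score of the other probe sets of the same gene (y axis, log2) for the 86 members that have others; the dashed line marks equal scores and red points are the oxygen response and glycolysis members. No point reaches 0.50 on the y axis, and 5 of the 6 red points lie above 0.25.

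By known function the members are mixed. They were sorted into 11 classes after their values had been seen, so the classes describe the list and support nothing. The classes are secreted signals and their modifiers (7 genes), oxygen response and glycolysis (8), heme synthesis (2), neural, synaptic and channel proteins (7), matrix (2), transcription factors and chromatin (16), RNA binding, splicing and silencing (12), long non-coding RNAs (8), ubiquitin, SUMO and protein modification (11), kinases, phosphatases, phosphodiesterases and lipid signalling (9), and a class of 18 that holds cell division, cytoskeleton, membrane traffic and mitochondrial genes.

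By the measure that chose the genes, applied to the other ducts, the members had a median of 0.20 in the vas deferens (-0.13 over all genes) and of -0.16 in the efferent duct (-0.16). It was above 0 in 67 members in the vas deferens (20.3% of all genes) and in 28 in the efferent duct (19.4%). It reached the lowest score of the 100 in 11 members in the vas deferens (0.308% of all genes) and in 2 in the efferent duct (0.066%). In both ducts this measure compares ages across the change of array set, so age and array set cannot be told apart in these counts. The tested transient contrast is the mean of E16.5 and E18.5 minus the mean of E14.5 and P1, which a gene that rises and stays up also passes, as Sostdc1 did in the vas deferens. In it 45 of the 100 members were called higher in the vas deferens, against 3.44% of all genes. None was called lower, against 1.59%. The difference was above 0 in 98 members, against 48.3% of all genes, and its median was 0.47, or 0.25 with all probe sets of a gene averaged. In the efferent duct 9 members were called higher (2.32% of all genes) and 3 lower (1.28%), with 55 members above 0, against 52.5% of all genes, and a median of 0.03. All calls here are from limma with Benjamini-Hochberg adjustment over the 18193 genes at 0.05. Without vas deferens E14.5 replicate 1 the vas deferens count was 28, and without efferent duct E18.5 replicate 1 the efferent duct count of higher calls was 5.

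The first step of the course was tested within each duct, and the difference between ducts in this step was not tested. From E14.5 to E16.5, 47 members rose in the vas deferens (5.71% of all genes) and 1 fell (4.09%), with a median change of 0.70, or 0.31 with probe sets averaged. In the efferent duct 6 rose (5.08%) and 9 fell (3.25%), with a median change of -0.14. The count of falls there was 2 with the efferent duct fitted alone and 3 with quantile normalization. Without the 8 arrays that stood apart, 64 rose and 1 fell in the vas deferens. The count of 47 was 27 without E14.5 replicate 1 and 29 without E16.5 replicate 2, and the efferent duct count of rises was 3 without E16.5 replicate 1. The vas deferens mean was highest at E16.5 for 58 members (24% of all genes) and the efferent duct mean for 6 (23.4%). Both counts compare E16.5 with arrays of the other array set, so age and array set cannot be told apart in them. At E18.5, the age that follows the change of array set, 56 members were highest in the efferent duct, against 23.4% of all genes. The control RNAs added to each sample differed between ages in some ducts: their 5' minus 3' difference was 0.42 and 0.47 in vas deferens E16.5 against -0.05 and 0.02 at E14.5, and 0.55 and 0.50 in epididymis E16.5 against 0.36 and -1.02 at E14.5 and 0.28 and 0.46 at E18.5. At the later ages of the vas deferens it was -1.20 and -1.24 (E18.5) and -1.46 and -1.17 (P1). In the efferent duct it was 0.05 and -0.19 at E16.5 against 0.09 and 0.03 at E14.5. Their part in the result was not tested.

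**Figure D3:**
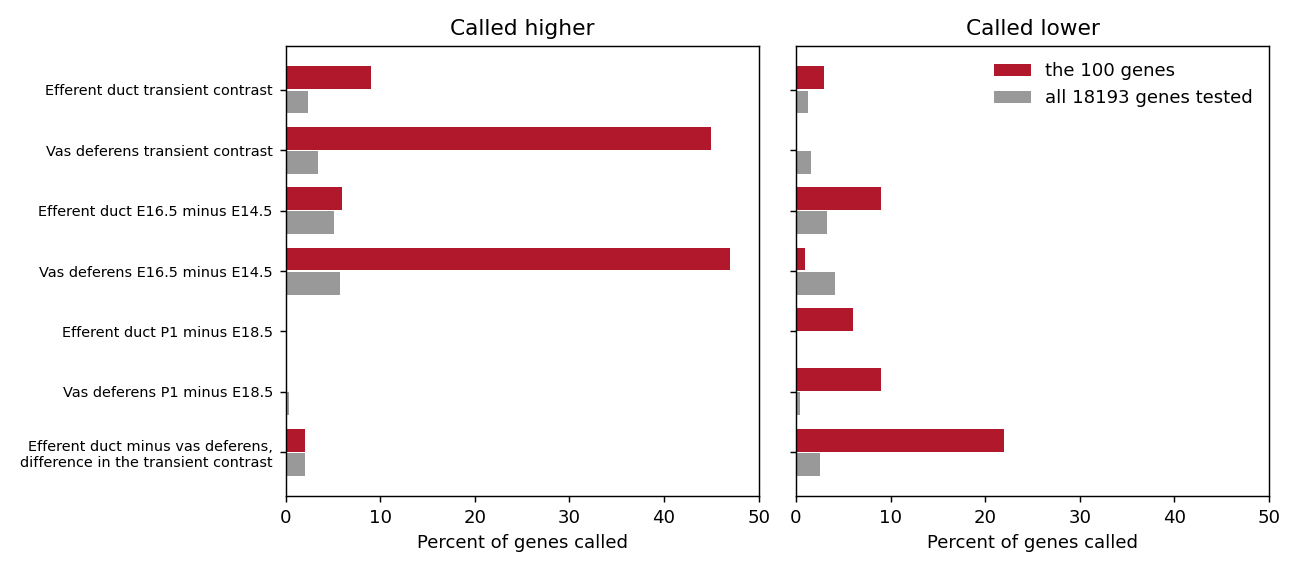
Percent of genes called higher (left) or lower (right) in each of the 7 tests, for the 100 genes (red) and for all 18193 genes tested (grey). The vas deferens bars of 45% and 47% stand against backgrounds of 3.44% and 5.71%, and both P1 minus E18.5 tests hold lower calls and no higher ones among the 100 genes.

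The secreted signals and their modifiers were Pnoc, Sostdc1, Wnt5a, Igf2, Lrat, Pcsk5 and Cklf. Sostdc1, a secreted inhibitor of WNT and BMP signalling, had epididymis ratios of -0.35 and -0.64 at E14.5, 0.77 and 0.60 at E16.5, 0.02 and 0.13 at E18.5, and -0.57 and -0.43 at P1. The E16.5 pair lay above all others. Vas deferens ratios were -0.63 and -1.12 at E14.5, 2.16 and 2.11 at E16.5, 1.32 and 1.12 at E18.5, and 1.67 and 1.53 at P1. It rose there by 3.02 from E14.5 to E16.5 (SE 0.17, 8.08-fold, limma adjusted p = 8.9e-08). Its later arrays, of the other array set, read above the E14.5 arrays. In the efferent duct Sostdc1 fell from E14.5 to E16.5 by 0.61 (SE 0.17, limma adjusted p = 0.033).

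Wnt5a encodes a secreted WNT ligand that directs tube elongation and cell polarity. Its vas deferens ratios were -0.37 and -0.11 at E14.5, 1.17 and 1.38 at E16.5, 0.14 and 0.10 at E18.5, and -0.32 and -0.35 at P1. Both E16.5 arrays exceeded all the others, and the rise from E14.5 was 1.51 (SE 0.20, 2.85-fold, limma adjusted p = 0.000201). The epididymis was high at every age, with 1.53 and 0.41 at E14.5, 1.50 and 1.19 at E16.5, 1.94 and 1.48 at E18.5, and 0.73 and 0.85 at P1, and its E14.5 replicates, farther apart than those of any later age, overlapped the rest. The efferent duct was low at every age, between -1.23 and -0.19, and its change from E14.5 to E16.5 of -0.27 did not pass the test (SE 0.20, adjusted p = 0.485). A list of WNT ligands, receptors, inhibitors and targets held 36 measured genes, of which Wnt5a is the only member. From E14.5 to E16.5 in the vas deferens 6 of these rose (5.71% of all genes) and 10 fell (4.09%), with a median change of -0.12.

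Igf2, the imprinted fetal growth factor, rose in the vas deferens from -0.76 and -0.45 at E14.5 to 0.32 and 0.42 at E16.5, a change of 0.97 (SE 0.22, limma adjusted p = 0.00982). It read -0.77 and -0.68 there at E18.5 and -1.60 and -1.15 at P1. In the epididymis its E14.5 replicates were 0.84 and -1.38, farther apart than the whole later course, in which E16.5 read 0.69 and 0.60, E18.5 0.26 and 0.59, and P1 0.06 and -0.07. It was chosen again in 4 of the 8 cases with an epididymis array left out, and its other probe sets had a median score of -0.04.

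Pnoc, the precursor of the neuropeptide nociceptin, had the highest score, 1.02. The epididymis read 1.45 and 0.84 at E14.5, 2.54 and 2.95 at E16.5, 1.46 and 1.71 at E18.5, and -0.01 and -0.24 at P1. Its high point in the vas deferens came at E14.5, with 2.72 and 3.26, followed by 1.88 and 2.38 at E16.5, -0.25 and -0.19 at E18.5, and -1.07 and -0.90 at P1. Pnoc was the single member that fell there from E14.5 to E16.5, by 0.85 (SE 0.18, limma adjusted p = 0.00803). It fell in the efferent duct too, by 1.13 (SE 0.18, adjusted p = 0.00122), from 0.01 and 0.08 to -1.09 and -1.08. Lrat, which esterifies retinol for storage, was higher in the middle of the vas deferens course by 0.43 (SE 0.10, adjusted p = 0.0265). Pcsk5, a convertase that cleaves secreted precursors and is also named after its values were seen, rose in the vas deferens from E14.5 to E16.5 by 0.68 (SE 0.11, adjusted p = 0.00127). Cklf, a chemokine-like factor, fell in the efferent duct at that step by 1.07 (SE 0.28, adjusted p = 0.0312).

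**Figure D4:**
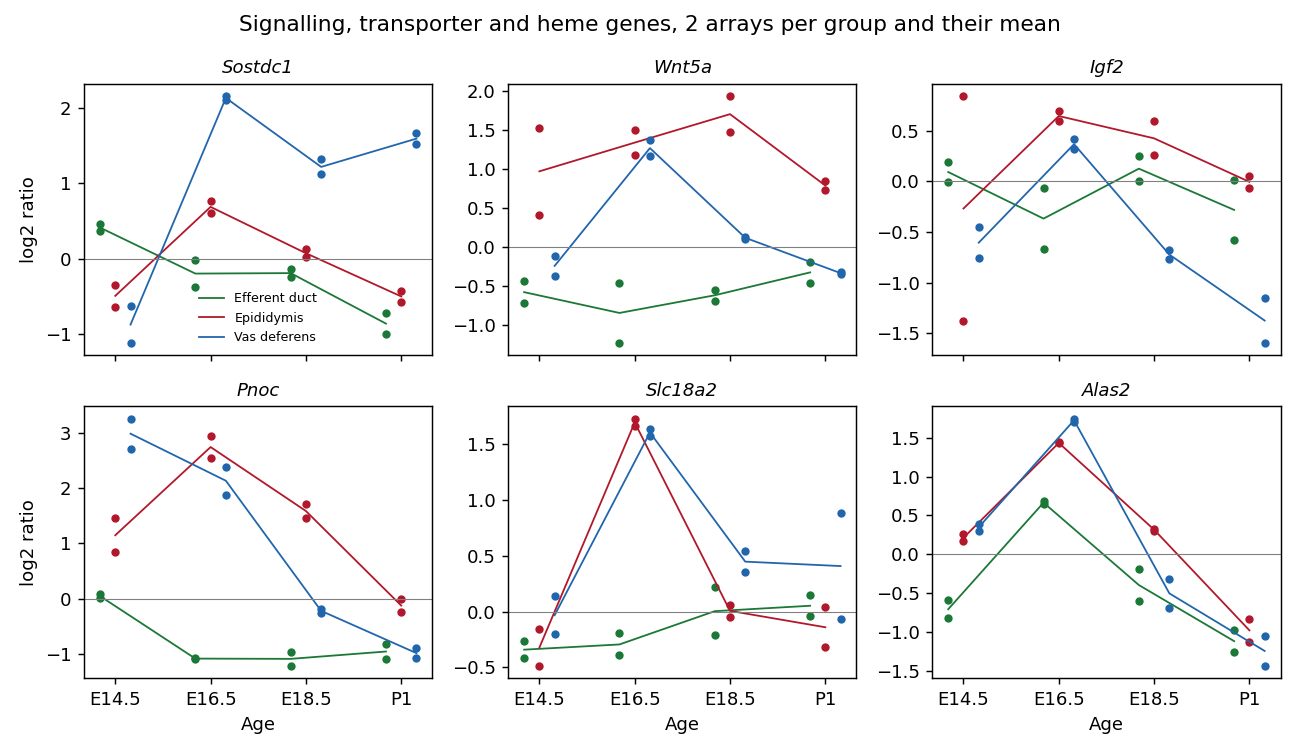
Log2 ratio of 6 members against age in each duct; points are single arrays and lines join the means of the 2 arrays of a group. Alas2 peaks at E16.5 in all 3 ducts, and Pnoc in the vas deferens is highest at E14.5. Slc18a2 and Wnt5a rise in the vas deferens at E16.5. Neither was called as rising in the efferent duct, and this step was not compared between ducts by a test.

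The oxygen response and glycolysis members were P4ha1, Ppp1r3c, Higd1a, Bnip3, Pfkfb3, Egln3, Pdk1 and Ankrd37. In normal oxygen, prolyl hydroxylases such as that encoded by Egln3 mark HIF alpha subunits for destruction. In low oxygen HIF persists and binds short DNA elements with the core ACGTG or GCGTG. Its targets include Egln3 itself, Bnip3 (mitochondrial clearance), Pdk1 (which holds pyruvate back from mitochondria), Pfkfb3 (which drives glycolysis), P4ha1 (collagen hydroxylation) and Ankrd37. In the epididymis, whose values chose the genes, 5 of the 8 were higher at E18.5 than at E16.5, as were 11 of the other 92 members. Higd1a and Ppp1r3c were placed in this class after their values had been seen, and were on no list.

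The promoters of 4 of these genes, Egln3, Ankrd37, Bnip3 and P4ha1, are shown because these 4 fell at birth in both tested ducts. Each is the 250 bases before a transcription start of the RefSeq promoter table in GRCm38.p6, read 5' to 3' on the strand of the gene, with every ACGTG or GCGTG, on either strand (CACGT or CACGC when read on the other), in capitals. They lie at chr12:54203875-54204124, minus strand (Egln3), chr8:45999851-46000100, minus strand (Ankrd37), chr7:138909507-138909756, minus strand (Bnip3) and chr10:59323046-59323295, plus strand (P4ha1). A gene can have several starts: by the RefSeq gene spans of the same build, the Ankrd37 window lies within the gene and the P4ha1 window runs into it.
Egln3: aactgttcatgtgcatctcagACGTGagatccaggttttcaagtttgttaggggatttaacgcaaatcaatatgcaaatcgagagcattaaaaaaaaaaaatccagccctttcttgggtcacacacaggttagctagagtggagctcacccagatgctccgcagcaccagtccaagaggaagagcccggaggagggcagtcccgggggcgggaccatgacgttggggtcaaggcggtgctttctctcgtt
Ankrd37: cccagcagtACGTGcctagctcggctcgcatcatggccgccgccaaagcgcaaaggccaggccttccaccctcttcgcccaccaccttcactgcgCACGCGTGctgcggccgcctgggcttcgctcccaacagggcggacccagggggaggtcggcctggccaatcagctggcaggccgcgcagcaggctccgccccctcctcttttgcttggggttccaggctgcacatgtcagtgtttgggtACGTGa
Bnip3: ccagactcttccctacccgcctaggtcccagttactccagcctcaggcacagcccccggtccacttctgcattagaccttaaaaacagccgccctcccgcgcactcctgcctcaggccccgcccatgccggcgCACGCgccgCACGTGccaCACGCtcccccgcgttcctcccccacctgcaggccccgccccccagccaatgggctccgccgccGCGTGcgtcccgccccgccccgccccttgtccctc
P4ha1: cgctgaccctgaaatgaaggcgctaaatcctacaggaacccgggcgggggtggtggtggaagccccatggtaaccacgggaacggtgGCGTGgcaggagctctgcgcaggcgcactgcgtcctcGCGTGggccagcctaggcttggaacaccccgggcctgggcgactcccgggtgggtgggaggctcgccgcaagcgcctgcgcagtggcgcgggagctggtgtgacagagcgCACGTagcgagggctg
All 8 oxygen response members held such a core in this window, and 6 of 8 held ACGTG. Among the other 67 members with a promoter in the table, 43 held a core and 16 held ACGTG. Of all 27025 genes in the promoter table, which is not limited to the genes measured here, 41.5% held a core and 18.5% held ACGTG. A match is a description of the letters and not a site shown to be bound.

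Ankrd37, a small ankyrin repeat protein, had epididymis ratios of 0.03 and 0.27 at E14.5, 0.83 and 0.62 at E16.5, 0.60 and 0.69 at E18.5, and -1.07 and -0.81 at P1. The efferent duct read -0.14 and -0.37, -0.21 and -0.04, 0.44 and 0.44, then -0.76 and -1.06 at the same ages. The vas deferens read 0.23 and 0.27, 0.86 and 0.49, -0.17 and -0.03, then -1.33 and -1.47. P1 was the lowest age in all 3 ducts, with no overlap with any earlier array. The fall from E18.5 to P1 was 1.35 in the efferent duct (SE 0.15, 2.55-fold, limma adjusted p = 0.00106), and it fell by 1.30 in the vas deferens (SE 0.15, 2.46-fold, adjusted p = 0.00101).

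Egln3 stood at 0.28 and 0.50 in the epididymis at E18.5 and at -0.53 and -0.66 at P1. The efferent duct ratios went from -1.28 and -1.74 at E14.5 through -0.68 and -0.76 at E16.5 to 0.54 and 0.85 at E18.5, then to -0.27 and -0.55 at P1. Those of the vas deferens were 0.26 and 0.31 at E14.5, -0.23 and -0.01 at E16.5, 1.47 and 1.46 at E18.5, and 0.55 and 0.23 at P1. The P1 arrays lay below the E18.5 arrays in every duct. It fell by 1.10 in the efferent duct (SE 0.17, limma adjusted p = 0.0117) and it fell by 1.07 in the vas deferens (SE 0.17, adjusted p = 0.00764).

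Bnip3 read 0.49 and 0.59 in the epididymis at E18.5 and -0.45 and -0.41 at P1. The efferent duct ratio rose from -0.64 and -0.86 at E14.5 to 0.63 and 0.51 at E16.5, a change of 1.32 (SE 0.13, 2.50-fold, limma adjusted p = 9.36e-06). It then read 0.85 and 1.21 at E18.5 and 0.31 and 0.23 at P1, where it had fallen by 0.76 (SE 0.13, adjusted p = 0.0231). The vas deferens was low at both early ages, with -0.50 and -0.57 at E14.5 and -0.30 and -0.33 at E16.5. It read 0.87 and 0.85 at E18.5 and -0.04 and -0.03 at P1, and it fell by 0.89 (SE 0.13, adjusted p = 0.00425).

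P4ha1, a subunit of the enzyme that hydroxylates collagen prolines, read 0.49 and 0.57 in the epididymis at E18.5 and -0.40 and -0.25 at P1. From E18.5 to P1 it went from 0.79 and 1.03 to -0.09 and -0.14 in the efferent duct, where it fell by 1.02 (SE 0.17, limma adjusted p = 0.0181). It went from 0.27 and 0.43 to -1.0 and -0.40 in the vas deferens, where it fell by 1.05 (SE 0.17, adjusted p = 0.00807). Pdk1 fell in the vas deferens by 1.10 (SE 0.21, adjusted p = 0.0289), from 1.57 and 1.46 to 0.09 and 0.75, while its change of -0.44 in the efferent duct did not pass (SE 0.21, adjusted p = 0.70). Pfkfb3 was higher in the middle of the course in both ducts, by 0.57 in the efferent duct (SE 0.11, adjusted p = 0.00968) and by 0.56 in the vas deferens (SE 0.11, adjusted p = 0.00953).

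At birth the class moved as follows. All 8 genes had both P1 arrays below both E18.5 arrays in the efferent duct (21.6% of all genes) and in the vas deferens (19.3%), as they did in the epididymis (20.6%), where the rule used the values. Of all 100 members 6 fell from E18.5 to P1 in the efferent duct (0.11% of all genes) and 9 in the vas deferens (0.379%). None rose in either, against 0.104% and 0.33%. The 6 that fell in the efferent duct, Ankrd37, Egln3, P4ha1, Dubr, Senp6 and Bnip3, all fell in the vas deferens too, an overlap that was not counted over all genes. Shisa9, Pdk1 and Mkrn1 also fell in the vas deferens. These counts were sensitive to single arrays: 1 gene was called in the efferent duct without E18.5 replicate 2 or without P1 replicate 2, and 3 were called without E18.5 replicate 1 or without P1 replicate 1. For the vas deferens the count was 2 without E18.5 replicate 2, 4 without E18.5 replicate 1 and 3 without P1 replicate 1. With the efferent duct fitted alone no member was called there.

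Some genes of the same pathway outside the 100 fell too. Of 22 genes on a list of hypoxia and glycolysis genes, 20 were measured, 5 of them members. The list was made with earlier results of these data known. Among the 15 that are no members, 4 fell from E18.5 to P1 in the efferent duct (0.11% of all genes) and 6 in the vas deferens (0.379%), and none rose. The remaining 11 and 9 were not called lower. Slc2a1, the main glucose transporter of fetal tissue, fell by 1.57 in the efferent duct (SE 0.15, 2.97-fold, limma adjusted p = 0.000276) and it fell by 1.14 in the vas deferens (SE 0.15, 2.20-fold, adjusted p = 0.00217). Vegfa, the vessel growth factor, fell by 0.98 (SE 0.14, adjusted p = 0.00877) and it fell by 0.84 in the vas deferens (SE 0.14, adjusted p = 0.0112). Hk2 and Ldha, enzymes at the start and the end of glycolysis, also fell in both ducts, and Pgk1 and Ndrg1 fell in the vas deferens. Over all 20 measured genes, with the 5 members included, the median change was -0.56 in the efferent duct and -0.81 in the vas deferens. Over all genes it was -0.01 and 0.00. The median of the 15 alone was not computed. In the epididymis 11 of the 15 had both P1 arrays below both E18.5 arrays, against 20.6% of all genes. The probe set of every gene was chosen by its epididymis values, so this count is a description.

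**Figure D5:**
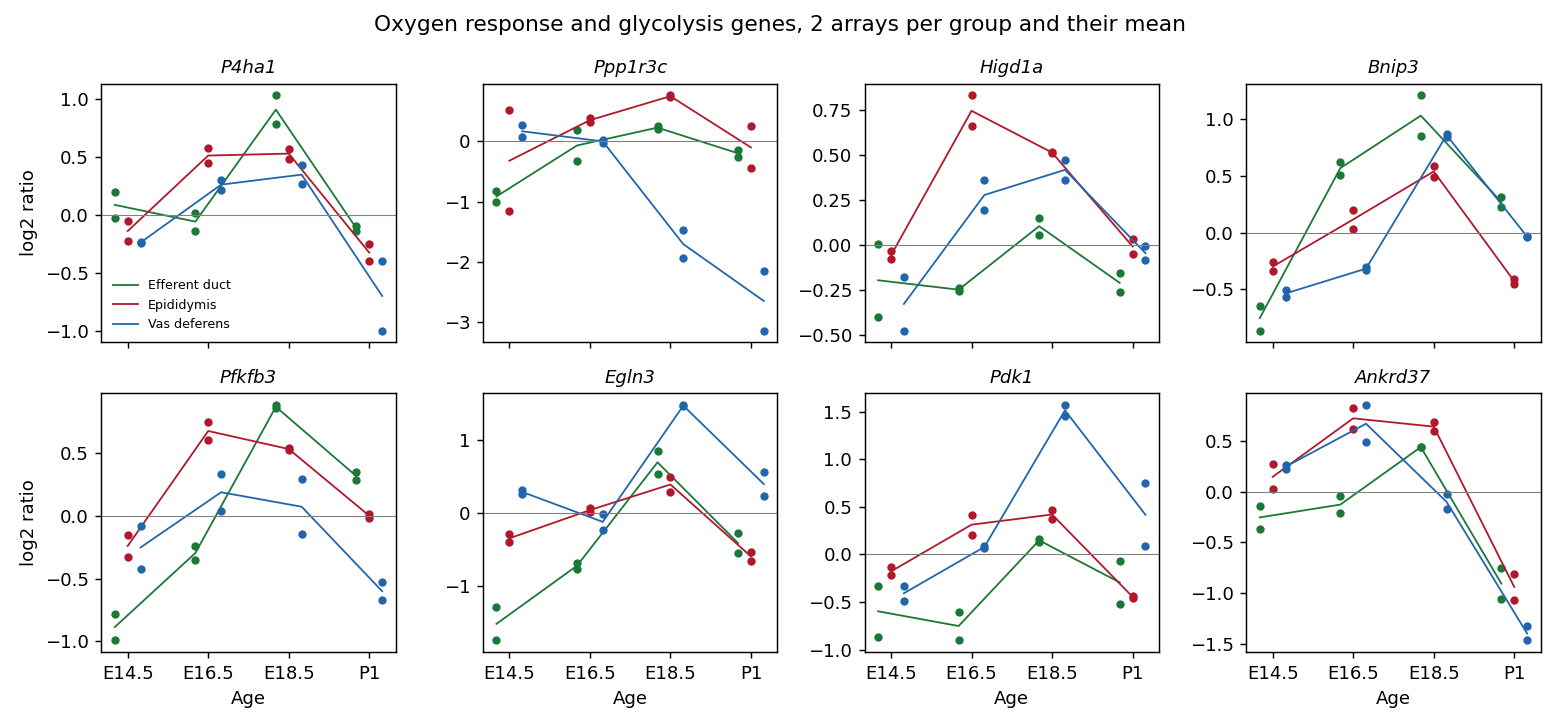
Log2 ratio of the 8 oxygen response and glycolysis members against age in each duct; points are single arrays and lines join the means of the 2 arrays of a group. In every panel and duct both P1 points lie below both E18.5 points, while the course from E14.5 to E18.5 differs between ducts.

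Heme synthesis was represented by its first and last enzymes. Alas2, the erythroid form of the first enzyme, read 0.26 and 0.17 at E14.5, 1.44 and 1.43 at E16.5, 0.30 and 0.33 at E18.5, and -0.83 and -1.13 at P1 in the epididymis. The efferent duct read -0.59 and -0.82, 0.64 and 0.68, -0.19 and -0.60, then -1.26 and -0.97 at these ages, and the vas deferens 0.39 and 0.30, 1.70 and 1.74, -0.32 and -0.69, then -1.44 and -1.05. The E16.5 pair was highest in all 3 ducts without overlap. From E14.5 to E16.5 Alas2 rose by 1.37 in the efferent duct (SE 0.17, 2.59-fold, limma adjusted p = 0.000129) and by 1.38 in the vas deferens (SE 0.17, 2.59-fold, adjusted p = 0.000143). Fech, which inserts the iron and is named after its values were seen, rose in the vas deferens by 0.81 (SE 0.22, adjusted p = 0.0306). Mkrn1, a ubiquitin ligase, rose at the same step in both ducts, by 0.47 in the efferent duct (SE 0.14, adjusted p = 0.0496) and by 1.00 in the vas deferens (SE 0.14, adjusted p = 0.000288). Its efferent duct call held in 7 of 24 alternative analyses, with adjusted p up to 0.234. Alas2 and Mkrn1 were the only 2 of the 100 members called as rising from E14.5 to E16.5 in both ducts, and the share of all genes called in both was not counted.

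Alas2 is itself a marker of red cell precursors. Of 18 erythroid markers listed, 15 were measured. Their median ratio in the epididymis was 0.12 at E14.5, 0.24 at E16.5, -0.10 at E18.5 and -0.13 at P1. From E14.5 to E16.5, 3 rose (5.71% of all genes) and 3 fell (4.09%) in the vas deferens. In the efferent duct 2 rose (5.08%) and 3 fell (3.25%), with Alas2 among the rises in both. In the epididymis the embryonic globins changed the other way over that step, by -3.36 for Hba-x, -1.71 for Hbb-bh1 and -4.91 for Hbb-y, while Hba-a1, an adult globin, changed by -0.12 and Slc4a1, the red cell anion exchanger, by 0.20; these 5 are named after their values were seen. The part of blood in the result was not tested.

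The neural, synaptic and channel genes were Slc18a2, Nrxn3, Shisa9, Pcdh20, Kcnd3, Nav2 and Syt13. Slc18a2, the transporter that loads monoamines into vesicles, read -0.16 and -0.49 at E14.5, 1.66 and 1.73 at E16.5, -0.05 and 0.06 at E18.5, and 0.04 and -0.32 at P1 in the epididymis, so it was up at 1 age alone. The vas deferens read -0.20 and 0.14, 1.64 and 1.57, 0.35 and 0.54, then -0.07 and 0.88, a rise of 1.64 to E16.5 (SE 0.24, 3.11-fold, limma adjusted p = 0.000423). The 8 efferent duct arrays ran from -0.42 to 0.22, and the change of 0.05 did not pass (SE 0.24, adjusted p = 0.94). The difference between the ducts in the transient contrast, -0.84, did not pass its limma test either (SE 0.24, adjusted p = 0.0578). Nrxn3, Shisa9 and Pcdh20, which encode synaptic or cell contact proteins, rose in the vas deferens at that step by 1.20, 1.44 and 1.76. Shisa9 then fell from E18.5 to P1 by 1.33 (SE 0.19, adjusted p = 0.00497). Kcnd3, a potassium channel, fell in the efferent duct from E14.5 to E16.5 by 0.59 (SE 0.17, adjusted p = 0.0416), a call that held in 8 of 24 alternatives (adjusted p up to 0.255).

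Markers of nerve and Schwann cells had, over 20 measured genes, a median epididymis ratio of -0.02 at E14.5, -0.07 at E16.5, -0.07 at E18.5 and -0.06 at P1. Of the 20, 2 rose in the vas deferens from E14.5 to E16.5 (5.71% of all genes) and none fell (4.09%), with a median change of 0.10. No marker of this list is among the 100 members. Their part in the rise of Slc18a2 was not tested.

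The transcription factors and chromatin genes were Hoxd10, Sox11, Zeb1, Tet2, Creb5, Hmbox1, Irf2bp2, Cramp1l, Msl2, Nsd1, Kdm7a, Tasor, Wac, Auts2, Atad2b and Zfp800. Of these 6 rose in the vas deferens from E14.5 to E16.5, against 47 of all 100 members and 5.71% of all genes. In the efferent duct Cramp1l fell by 0.62 (SE 0.17, limma adjusted p = 0.036), a call that held in 15 of 24 alternatives. Hmbox1 and Irf2bp2 were higher in the middle of the efferent duct course, by 0.51 (SE 0.13, adjusted p = 0.0423) and by 0.37 (SE 0.10, adjusted p = 0.0498). These calls held in 10 and 5 of 24 alternative analyses. Tet2, an enzyme that oxidises methylated cytosine in DNA and is named here after its values were seen, read 0.32 and 0.44 at E14.5 in the vas deferens, 1.79 and 1.71 at E16.5, 1.39 and 1.58 at E18.5, and 1.25 and 1.16 at P1. It therefore rose by 1.37 at the first step (SE 0.13, adjusted p = 9.22e-06). It read above E14.5 at the later ages, which lie in the other array set. Hoxd10 in the epididymis read -0.18 and -0.43 at E14.5, 0.92 and 0.69 at E16.5, 0.20 and 0.01 at E18.5, and -0.01 and -0.35 at P1, and none of its changes in the other ducts passed a test. Of the 14 measured posterior HOX genes, 3 fell (4.09% of all genes) and none rose (5.71%) from E14.5 to E16.5 in the vas deferens.

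The RNA binding, splicing and silencing genes were Mex3c, Pabpc4l, Ago3, Gigyf2, Hnrnpa1, Hnrnpu, Luc7l2, Marf1, Rbm39, Rsrp1, Tra2a and Zfr. From E14.5 to E16.5, 6 of the 12 rose in the vas deferens, against 47 of all 100 members and 5.71% of all genes. Mex3c, an RNA binding ubiquitin ligase, went there from -0.88 and -0.53 to 1.37 and 1.07, a rise of 1.92 (SE 0.24, 3.79-fold, limma adjusted p = 0.000126). Its epididymis replicates were far apart, at 0.94 and -0.67 at E14.5 and at 1.19 and 0.25 at E16.5. Pabpc4l, a poly(A) binding protein, moved in opposite directions: it rose in the vas deferens by 1.56 (SE 0.24, adjusted p = 0.000746) and fell in the efferent duct by 1.07 (SE 0.24, adjusted p = 0.0119). Of the 100 members, 5 fell in the efferent duct and rose in the vas deferens at this step, namely Sostdc1, Pabpc4l, Pde7b, Taok1 and Cramp1l. Their efferent duct calls held in 18, 19, 23, 10 and 15 of 24 alternatives, in that order. The share of all genes with this pair of calls was not counted.

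The ubiquitin, SUMO and protein modification genes were Ube2b, Ube2k, Senp6, Mkrn1, Herc4, Fbxl7, Btbd7, Cdc23, Gmcl1, Setd3 and Wdyhv1. Senp6, which removes SUMO chains, read 0.13 and 0.37 in the epididymis at E18.5 and -0.68 and -0.43 at P1. At birth it fell by 0.81 in the efferent duct (SE 0.13, limma adjusted p = 0.0181) and it fell by 0.68 in the vas deferens (SE 0.13, adjusted p = 0.0266). Fbxl7, an F-box substrate receptor, fell in the efferent duct from E14.5 to E16.5 by 1.01 (SE 0.22, adjusted p = 0.00942). Ube2b, a ubiquitin-conjugating enzyme with a score of 0.80, read 0.12 and -0.81 at E14.5, 0.64 and 0.62 at E16.5, 0.93 and 0.65 at E18.5, and -0.17 and 0.00 at P1 in the epididymis and passed no test in either duct.

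Among kinases, phosphatases, phosphodiesterases and lipid signalling genes were Pde4b, Pde7b, Taok1, Tnik, Fnip1, Gng12, Inppl1, Pip5k1a and Ppp4r3a. Pde7b and Pde4b degrade cyclic AMP. Pde7b read -0.24 and -0.04 at E14.5, 1.04 and 1.14 at E16.5, -0.01 and 0.17 at E18.5, and -0.09 and 0.01 at P1 in the epididymis, with both E16.5 arrays above the other 6. It rose in the vas deferens from 1.36 and 1.32 at E14.5 to 3.09 and 2.95 at E16.5, by 1.68 (SE 0.17, limma adjusted p = 2.81e-05). It read 2.69 to 3.06 on the later arrays there, which are of the other array set. It fell by 0.90 in the efferent duct at the same step (SE 0.17, adjusted p = 0.0046). Pde4b read -0.62 and -0.47 at E14.5, 0.69 and 0.68 at E16.5, 0.31 and 0.00 at E18.5, and -0.42 and -0.38 at P1 in the epididymis. Its rise in the vas deferens, from 0.13 and 0.50 to 1.74 and 1.28, was 1.19 (SE 0.20, adjusted p = 0.00124). Taok1, a kinase of stress signalling, had a rise of 1.5 in the vas deferens (SE 0.22, adjusted p = 0.000457) and a change of -0.76 in the efferent duct (SE 0.22, adjusted p = 0.0439), the latter called in 10 of 24 alternatives (adjusted p up to 0.399). Ppp4r3a, a phosphatase subunit, rose in the efferent duct by 0.66 (SE 0.14, adjusted p = 0.00768), a direction that its other probe sets did not share: with all its probe sets averaged the change was -0.01 (adjusted p = 0.98).

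The long non-coding RNAs were Rian, Meg3, Dubr, Gas5, Tug1, Dleu2, Foxl2os and Gm32688. Rian and Meg3 are neighbours in the imprinted Dlk1 to Dio3 cluster and are expressed from the maternal chromosome. Rian scored 0.87 but its replicates spread widely, at -0.11 and -1.36 in the epididymis at E14.5 and at 2.04 and -0.27 in the efferent duct at E16.5, and it passed no test. Meg3 read 0.00 and -0.19 at E14.5, 0.76 and 0.81 at E16.5, 0.30 and 0.09 at E18.5, and -0.50 and 0.00 at P1 in the epididymis. Its rise of 0.73 in the vas deferens did not pass either (SE 0.26, limma adjusted p = 0.0906). Of 17 imprinted genes measured, 3 of them members (Igf2, Meg3 and Rian), 3 rose (5.71% of all genes) and 6 fell (4.09%) from E14.5 to E16.5 in the vas deferens. Dubr, a long non-coding RNA, fell at birth by 1.02 in the efferent duct (SE 0.17, adjusted p = 0.0251) and it fell by 0.96 in the vas deferens (SE 0.17, adjusted p = 0.019). Foxl2os, transcribed from the strand opposite Foxl2, was high in the epididymis alone from E16.5 on, with 2.53 and 2.76 at E16.5, 3.45 and 2.83 at E18.5, and 2.0 and 2.74 at P1, against at most 0.52 on any array of the other ducts.

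The remaining members were the matrix genes Fn1, which encodes fibronectin, and Chsy3, a chondroitin synthase, and 18 genes of cell division, cytoskeleton, membrane traffic, mitochondria and other functions. The 18 were Chchd7, 1810014B01Rik, Zfp207, Rpl27a, Tm4sf20, Hypk, Ndufab1, Bcl2, Rab2a, Spats2l, Fcho2, Bora, Mtss1, Tmed7, Lmnb1, Eml5, Pfdn2 and Scp2. Fn1 changed by 0.03 in the vas deferens from E14.5 to E16.5 (SE 0.26, limma adjusted p = 0.976), while of 32 measured interstitial matrix genes 10 rose (5.71% of all genes) and none fell (4.09%) there. Of the class of 18, 12 rose in the vas deferens at that step, against 47 of all 100 members and 5.71% of all genes. None rose or fell in the efferent duct, where 5.08% of all genes rose and 3.25% fell. Chchd7, a small mitochondrial protein, read -0.45 and -0.78 at E14.5, 0.63 and 0.70 at E16.5, 0.09 and -0.33 at E18.5, and -0.64 and -0.57 at P1 in the epididymis. It rose in the vas deferens by 0.94 (SE 0.15, adjusted p = 0.000877) from -0.01 and 0.07 to 0.94 and 1.00. On the later arrays, of the other array set, it read 0.81 to 0.91. Its 3 other probe sets had a median score of 0.05. Zfp207, a zinc finger protein, read 0.03 and -1.54, 0.73 and 0.71, 0.44 and -0.03, then -0.56 and -0.12 at these ages in the epididymis, and its E14.5 replicates lay far apart. In the vas deferens it rose by 0.65 (SE 0.18, adjusted p = 0.0303) from 0.13 and 0.42 to 0.96 and 0.87, and read 1.03 to 1.14 afterwards. Rpl27a, a protein of the large ribosomal subunit, had epididymis ratios of -0.98 and -0.49, 0.31 and 0.37, 0.23 and 0.12, then -0.49 and -0.60. It rose in the vas deferens by 1.14 (SE 0.27, adjusted p = 0.0143) from -0.57 and -0.05 to 0.55 and 1.11. At the later ages, which lie in the other array set, it read 1.14 to 1.62. 1810014B01Rik had its epididymis high point at E18.5, with -0.27 and -0.44, 0.67 and 0.78, 1.04 and 1.03, then 0.11 and -0.10, and it passed no test in either duct.

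Whether the middle of the course differed between the efferent duct and the vas deferens was tested directly. The efferent duct contrast was lower than the vas deferens contrast in 22 members (2.54% of all genes) and higher in 2 (2.01%), with a median difference of -0.40. The count of 22 was 14 without efferent duct E18.5 replicate 2, vas deferens E14.5 replicate 1 or vas deferens E18.5 replicate 2. Wnt5a differed by -1.26 (SE 0.20, limma adjusted p = 0.00229) and Sostdc1 by -1.29 (SE 0.17, adjusted p = 0.000689). The 2 members with the opposite sign were the oxygen response genes Egln3, at 0.62 (SE 0.17, adjusted p = 0.0496), and Bnip3, at 0.48 (SE 0.13, adjusted p = 0.0436). These calls held in 7 and 8 of 23 alternatives, with adjusted p up to 0.138 and 0.118, and neither held with the replicate number as a block. In all, 65 of the 100 members passed at least 1 of the 6 tests within a duct and 35 passed none. The share of all genes that pass at least 1 was not counted, so these counts have no background.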

How the data were processed

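The authors deposited 1 table of ratios for 24 Affymetrix arrays. RMA is named in the submitters' processing notes; its version and the step that made ratios are not stated in the labels used. Of 45101 probe sets, 45081 have a median ratio of 1 over the arrays within 0.0001, so each deposited ratio is relative to that median and carries no level. The log2 of each ratio was taken. Probe sets were named from GEO's platform table: 34945 have 1 symbol, 932 several, 9160 none and 64 are controls. For each of 18193 genes the probe set with the highest epididymis score was kept, in the members and in the background alike. The 16 efferent duct and vas deferens arrays were fitted with limma 3.58.1 (R 4.3.3), 1 mean per group, with no filter and with two-sided p-values adjusted by Benjamini-Hochberg over the 18193 genes. The script was tested on simulated data. No 2 arrays were identical. The 2 arrays per group limit the precision. Replicate numbers did not pair the arrays, as the closing section gives.

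The members and gene lists were chosen with earlier results of these data known. Values are given for the 10 members with the highest score, members on a gene list, up to 10 members called in each direction in each test, and the ranks around the threshold, and any other is named as chosen after its values were seen. Promoter sequences are RefSeq's (GRCm38.p6), and 75 of 100 members matched. Alternatives were quantile normalization, median centring, all 24 arrays in the fit, other handling of probe sets, a filter on low spread, a replicate block, each array left out, each duct fitted alone and the fit without the arrays that stood apart, the last 2 added after seeing the data.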

Additional observations from a re-analysis of the deposited data

Results flagged for a closer look

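The middle-against-ends contrast (mean of E16.5 and E18.5 minus mean of E14.5 and P1, log2) differed between efferent duct and vas deferens in 24 of the 100 members by the test of the difference itself (limma, adjusted p from 0.000437 to 0.0496). The values below are efferent duct minus vas deferens, and no cause was tested. Among the signalling genes the difference was -1.29 for Sostdc1, -1.26 for Wnt5a, -1.23 for Cklf and -0.84 for Igf2. RNA binding genes differed by -1.65 for Mex3c, -1.48 for Pabpc4l, -0.80 for Zfr and -0.76 for Gigyf2. For the neural, synaptic and channel genes it was -1.52 for Shisa9, -1.10 for Nrxn3, -1.07 for Pcdh20 and -0.69 for Kcnd3. The phosphodiesterase Pde7b differed by -1.45 and the kinase Taok1 by -1.42. The chromatin genes Tet2 and Kdm7a differed by -0.86 and -0.60. Genes of ubiquitin and protein modification gave -0.75 for Mkrn1, -0.62 for Herc4 and -0.58 for Wdyhv1. Fcho2, Pfdn2 and the non-coding RNA Dleu2 gave -0.91, -0.73 and -0.78. The oxygen response genes Egln3 and Bnip3 had the other sign, at 0.62 and 0.48.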

How the results depend on the processing

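Only 2 arrays stand behind each group, and ratios carry no signal over background, so depth could not be judged. Of 75 gene differences recomputed under the alternatives, 33 kept their direction and their side of the threshold in all that were run. Over all 1805 recomputed values 1533 did so, 271 kept the direction without passing, and 1 reversed: Ppp4r3a from E14.5 to E16.5 in the efferent duct, at -0.0061 with the mean of its probe sets. Counts of members that moved by over 1.5 times were these, and the cause was not tested. With quantile normalization the members lower in the efferent duct rise test (E16.5 minus E14.5) numbered 3 and in the vas deferens rise test 2, those lower at P1 in the vas deferens 4, and those with the efferent duct contrast higher than the vas deferens contrast 1. Median centring gave 1 for the last. The mean of the probe sets gave 5 lower in the efferent duct rise test and a membership of 44. The efferent duct fitted alone gave 1 lower in its transient contrast, 2 lower in its rise test and 0 lower at P1. Within 1.5 times of the reported counts were the 64 rises in the vas deferens and the 6 falls at P1 in the efferent duct without the 8 arrays that stood apart.

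With 1 array left out, members called higher in the transient contrast ranged from 5 to 11 in the efferent duct and from 28 to 51 in the vas deferens, and those lower in the efferent duct from 0 to 4. The rise test ranged from 3 to 7 higher and 6 to 11 lower in the efferent duct, and from 27 to 57 higher and 0 to 1 lower in the vas deferens. At P1 1 to 6 fell in the efferent duct and 2 to 9 in the vas deferens. The difference between ducts ranged from 0 to 2 higher and 14 to 28 lower, and the membership from 64 to 89.

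Deviations of same-numbered arrays from their group means correlated at -0.40 to 0.36, above 0.1 in 13 of 66 pairs of groups, so equal numbers were not read as pairs. With the replicate number as a block, 48 members were higher in the vas deferens transient contrast, 51 rose there from E14.5 to E16.5, and 0 had the efferent duct contrast higher than the vas deferens contrast.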
